A study of Mus musculus with 8 samples.

Results

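Potassium channel genes were examined in the medial ganglionic eminence (MGE), the embryonic source of many cortical and striatal GABAergic interneurons, after loss of the transcription factor Nkx2-1. The members are all genes whose mouse symbol begins with Kcn and to which an array probe could be matched by its accession. They were 82 of the 17178 genes matched on the array and were measured by 112 of its 41174 probes. The series compares 4 WT arrays with 4 Nkx2-1cKO arrays, each hybridised with RNA of microdissected MGE from C57BL/6 embryos at E13.5. The labels give the WT as Nkx2-1flox/+;Olig2tva-cre- and the mutant as Nkx2-1flox/+;Olig2tva-cre+, so a floxed allele was common to both groups and the Cre was the labelled difference. The labelled genotype of the mutant is heterozygous for the floxed allele, while the methods of the study name a Nkx2-1f/f strain for making it. The Cre is expressed from Olig2 regulatory sequence, so removal is limited to cells in which that sequence has been active. No source used here states that each array held a separate embryo or litter, so the p-values measure the spread between these samples, and the number of arrays limits the precision. The level of a gene is given throughout as the log2 of its probe's signal relative to the 75th percentile of the array, and a change as the difference of the Nkx2-1cKO mean from the WT mean on that scale.

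Potassium channels let potassium ions leave the cell and so set the resting potential, end the action potential and limit how fast a neuron can fire. Voltage-gated alpha subunits assemble as tetramers within their own subfamily, silent subunits join such tetramers without forming channels alone, and auxiliary subunits alter gating and surface delivery. Inward rectifiers and tandem pore domain (K2P) channels carry resting and leak currents, and channels of the Kv3 group allow the brief spikes of fast-spiking interneurons, a class that arises in the MGE.

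Nkx2-1 was low on every array labelled as mutant. It read 1.82 to 1.95 on the WT arrays and -4.66 to -4.26 on the mutant arrays, a change of -6.34 (adjusted p = 4.67e-09, standard error 0.11, limma), so that 1.24% of the WT signal remained. The labels give only 1 floxed allele, and how that goes with so low a signal was not resolved. Of the gene lists that mark cell classes, 3 of 11 MGE genes fell, namely Nkx2-1, Lhx6 and Lhx8. In the list for the lateral and caudal ganglionic eminences 5 of 8 genes rose (Meis2, Ebf1, Isl1, Zfp503 and Rarb), and in that for oligodendrocyte precursors 3 of 4 tested genes fell (Pdgfra, Olig1 and Gpr17). None of the 10 genes of the differentiating neuron list, the 9 of the dividing progenitor list or the 7 of the pallium list passed the threshold, and none did in the endothelium, mural cell, microglia, erythroid and mesenchyme lists. The summed signal of the MGE list, as a multiple of the 75th percentile, was 141 to 148 in WT and 113 to 127 in the Nkx2-1cKO, and that of the lateral and caudal list 39.9 to 53.5 and 75.05 to 82.7. That of the oligodendrocyte precursor list was 3.29 to 3.75 and 2.24 to 2.68. These 3 lists differed between the same groups of arrays as are compared below, and their part in the potassium channel results was not tested. In bulk tissue, fewer cells of a type and less RNA per cell cannot be told apart.

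WT replicate 1 stood apart from the other arrays on dim probes. Its dimmest 20% of probes lay at a median of 1.42 on the log2 scale above the median of the other arrays, whereas for each of the other 7 arrays this deviation was between -0.20 and 0.02. Among the tested members, 40 of 75 were higher on WT replicate 1 than on any other WT array. This count was not set against that of all genes, so it does not show whether the trait is particular to the members. The arrays lay on 2 slides of 2 WT and 2 Nkx2-1cKO arrays each, and slide 1 held WT replicates 1 and 3.

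Of the potassium channel genes, 2 fell and none rose in the Nkx2-1cKO. Kcnc2, a Kv3-type alpha subunit, fell to 23.0% of its WT signal, and Kcns2, a silent subunit, to 35.7%. Of the 82 genes, 75 had a probe that stood well above background on 4 or more arrays and were tested, and 68 of these did so on all 8. The 2 of 75 genes that fell compare with 0.851% of all 14447 genes tested, and the 0 that rose with 0.491% (limma, adjusted p under 0.05). At an unadjusted p under 0.05, 11 members were lower and 3 higher, against 5.22% and 4.26% of all genes. The groups did not overlap for 12 members with lower and 3 with higher values in the Nkx2-1cKO, against 4.02% and 2.82% of all genes. Most differences were small, with 57 of 75 under 0.5 in size, and the median standard error was 0.19. The sign of the change was negative for 50 of 75 members, against 50.3% of all genes, and the median change was -0.10, against -0.00 for all genes. With slide as a block 2 fell and 0 rose, against 1.09% and 0.803% of all genes. The median of the members and that of all genes were -0.06 and 0.02 without WT replicate 1, 0.02 and 0.12 with centring on the median of each array, 0.01 and 0.01 with quantile normalization and 0.31 and 0.08 with normexp background correction, so the sign of the members' median depended on the scaling.

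**Figure D1:**
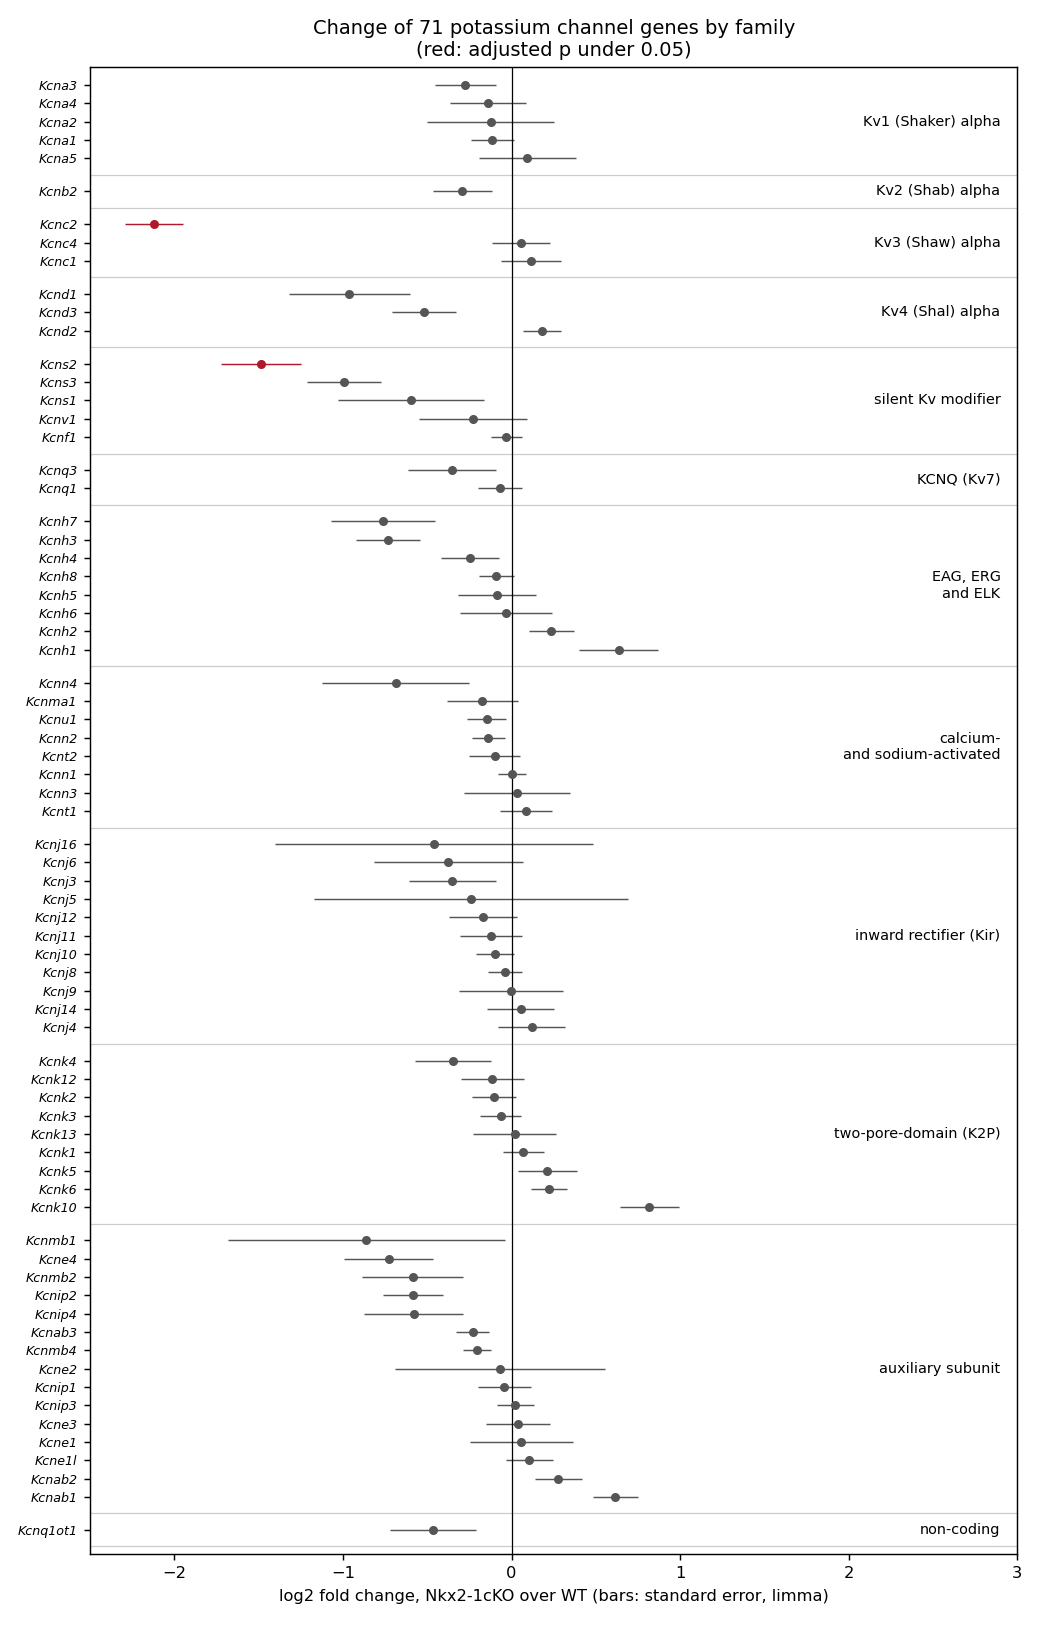
Log2 fold change (x axis, Nkx2-1cKO over WT, 4 arrays each) of 71 of the 75 tested potassium channel genes (y axis), grouped by family and drawn from the brightest probe of each gene, with bars for the limma standard error. Kcnc2 at -2.12 and Kcns2 at -1.48, in red, passed the threshold, and Kcnk10 at 0.82 was the highest value.

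The largest fall was in Kcnc2, which encodes a Kv3 alpha subunit of fast delayed rectifier channels known from adult parvalbumin and somatostatin interneurons. Its brightest probe had log2 signals of -1.77, -1.20, -1.26 and -1.41 in WT replicates 1 to 4 and of -3.33, -3.31, -3.61 and -3.88 in Nkx2-1cKO replicates 1 to 4. Every mutant array was below every WT array by over 1 on the log2 scale, and all 8 values were well above background. The change was -2.12 (standard error 0.17, adjusted p = 0.00028, limma), a 4.35-fold lower signal, which ranked 21 among the 123 falls of all genes. It was -2.08 on slide 1, -2.16 on slide 2 and -2.24 without WT replicate 1, and it passed the threshold with any single array left out. With normexp it was -1.40 (adjusted p = 0.06, limma). A second probe of Kcnc2 gave -2.13 (adjusted p = 0.00033, limma), and the dimmest -1.03 (adjusted p = 0.19), with values of -5.73 to -5.03 in WT and -6.71 to -6.27 in the Nkx2-1cKO. The mutant arrays were thus below the WT arrays on all 3 probes, though by a smaller step on the dimmest.

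Kcnc1 and Kcnc4, also of the Kv3 group, gave no such difference. Kcnc1, which is co-expressed with Kcnc2 in adult fast-spiking cells, had a log2 fold change of 0.12 (standard error 0.18; 95% interval -0.28 to 0.52), with WT values of -1.13 to -0.66 and mutant values of -1.13 to -0.31. Its other probes gave 0.14 and -0.11. Kcnc4 gave 0.05 (95% interval -0.33 to 0.44). Within each array, Kcnc2 relative to the mean of Kcnc1 and Kcnc4 differed by -2.21 on the log2 scale between the groups, with no overlap (exact permutation test, two-sided, p = 0.0286, which is the lowest possible with 4 arrays in each group; adjusted p = 0.0358 over 5 such pairs). These 5 pairs were chosen after the values were seen, so their p-values are descriptive only.

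The first and the last of 4 promoter windows of Kcnc2 follow, since it is the member with the largest fall. Each holds the 250 bases before an annotated start of the gene in the RefSeq assembly GRCm38.p6, on the plus strand, at chr10:112269767-112270016 and chr10:112271023-112271272. Capitals mark E-boxes, sites of the letters CANNTG read by basic helix-loop-helix factors.
Kcnc2, first start: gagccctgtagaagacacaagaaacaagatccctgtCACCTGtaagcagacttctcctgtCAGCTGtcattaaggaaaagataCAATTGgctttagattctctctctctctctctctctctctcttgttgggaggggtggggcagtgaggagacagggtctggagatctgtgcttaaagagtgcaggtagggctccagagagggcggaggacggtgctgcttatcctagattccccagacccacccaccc
Kcnc2, last start: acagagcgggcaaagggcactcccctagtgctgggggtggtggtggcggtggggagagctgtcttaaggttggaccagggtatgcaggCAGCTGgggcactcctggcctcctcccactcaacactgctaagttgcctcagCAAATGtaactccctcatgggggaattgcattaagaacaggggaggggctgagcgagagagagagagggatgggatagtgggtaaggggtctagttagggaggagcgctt
These windows hold 3 and 2 E-boxes. The windows before 2 further starts overlap the second window shown, and the only E-box of each is the CAGCTG already marked there. An E-box stands in 66.22% of the 32851 promoter windows of this length. Neither strand of any of the 4 windows holds CACTTNA, the letters of an NKX2-type motif (10.06% of all windows), TAATTA of an LHX-type homeodomain motif (4.84%), the octamer ATGCAAAT (1.601%) or ACAATG of a SOX-type motif (10.69%). That says only that these letters are not in these windows. Of the 82 members, 60 had a window in the table.

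Silent Kv subunits, which form no channel alone and modify Kv2 channels, held the second fall. Kcns2 had log2 signals of -4.54, -5.03, -4.90 and -5.03 in WT and of -6.32, -6.06, -6.46 and -6.59 in the Nkx2-1cKO. The groups stood more than 1 apart on the log2 scale, and all 8 values were well above background, although low. The log2 fold change was -1.48 (standard error 0.24, adjusted p = 0.017, limma), a 2.80-fold lower signal. It was -1.61 on slide 1 and -1.36 on slide 2, and without WT replicate 1 it was -1.38 (adjusted p = 0.018). Leaving out any array other than WT replicate 1 or Nkx2-1cKO replicate 2 raised the adjusted p to between 0.06 and 0.07, while the change stayed between -1.54 and -1.41. With normexp the sign turned, at 0.09 with a standard error of 0.76, and with quantile normalization the change was -1.09 (adjusted p = 0.15, limma). A second Kcns2 probe was well above background on 3 of 4 WT arrays and on no mutant array, and so was not tested. An estimate of its fall was 2.52-fold. That took, for each mutant array, the higher of the probe's own signal and the lowest signal of any probe called above background there. The WT side was the mean of all 4 arrays, including the one not well above background, so the estimate is not a strict lower bound.

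Kcns3, a silent subunit known from parvalbumin interneurons, had log2 signals of -4.74, -5.09, -4.94 and -4.97 in WT and of -5.96, -6.19, -5.94 and -5.61 in the Nkx2-1cKO. No mutant array reached a WT array, but the log2 fold change of -0.99 (standard error 0.22) missed the threshold (adjusted p = 0.085, limma). With slide as a block the adjusted p was 0.061, with array weights 0.045, and with normexp the sign turned (0.29). Kcns1, of the same subfamily, had a change of -0.60 (standard error 0.43, adjusted p = 0.67) that rested on 1 array: WT replicate 1 read -3.21, the other WT arrays -5.27 to -5.19 and the mutant arrays -5.38 to -5.29. Without WT replicate 1 the change was -0.09. Relative to Kcns1 within each array, Kcns2 differed by -0.89 between groups, with overlap (exact permutation test, two-sided, p = 0.1429; adjusted p = 0.1429). The overlap came from WT replicate 1, and without it the difference was -1.28 with the groups apart. Kcnf1 gave -0.03 and Kcnv1 -0.23, or -0.40 without that array, and Kcng3, Kcng4 and Kcnv2 had no tested probe. Kcnb2, a Kv2 partner of silent subunits, gave -0.29 (standard error 0.18), or -0.18 without WT replicate 1, and did not pass the threshold.

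**Figure D2:**
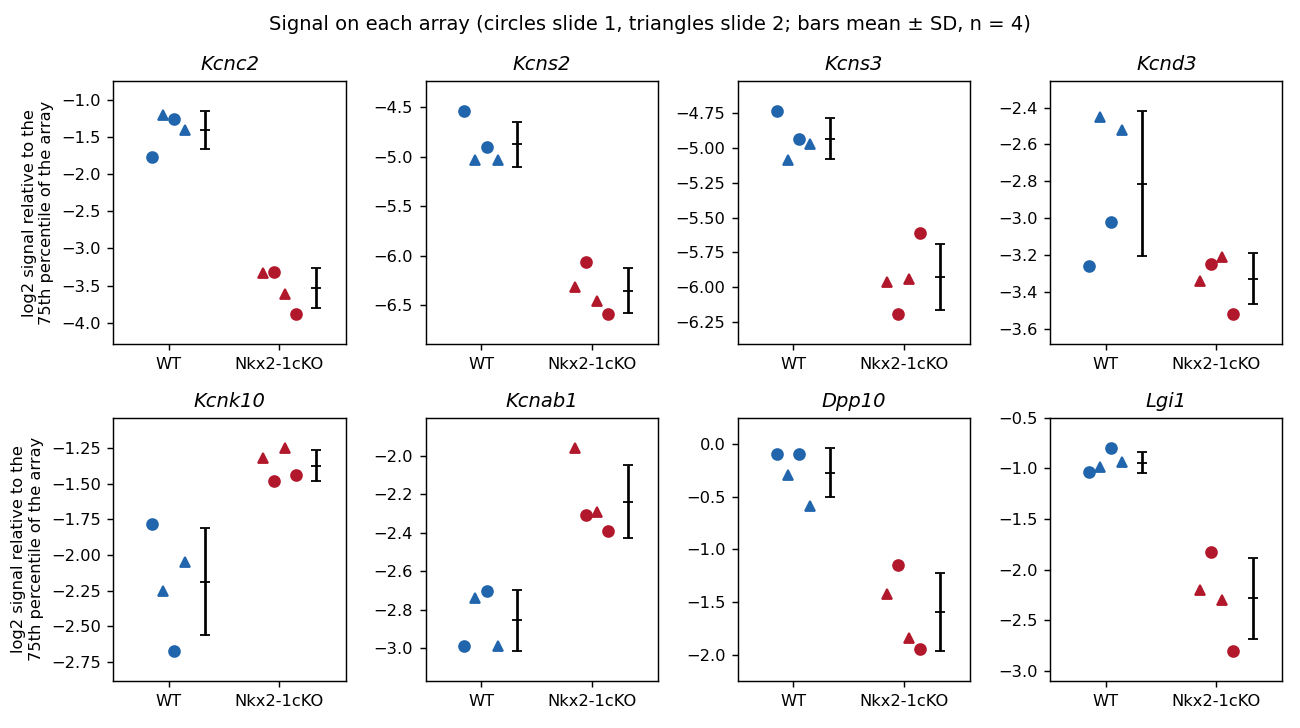
Log2 signal over the array's own 75th percentile (y axis) on the 4 WT (blue) and 4 Nkx2-1cKO (red) arrays for 6 potassium channel genes and 2 partner genes, with circles for slide 1, triangles for slide 2 and black bars for the mean ± SD (n = 4). The groups are apart for all but Kcnd3, where the WT range of -3.26 to -2.45 meets the mutant range of -3.52 to -3.21. The y axes differ between panels.

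Shaker-type Kv1 genes did not pass the threshold. The 5 genes, which include the axonal subunits Kcna1 and Kcna2 of many mature neurons, had changes of -0.28 to 0.09, or of -0.14 to 0.00 without WT replicate 1. Kcna1 gave -0.11 (standard error 0.13) and Kcna2, which was near the background, -0.12 (standard error 0.38). Among the 5 members listed as subunits known from fast-spiking interneurons (Kcnc1, Kcnc2, Kcns3, Kcna1 and Kcna2), 1 fell, where 0.851% of all genes did, and Kcns3 was the other one whose groups were apart, where 4.02% of all genes were apart and lower in the mutant.

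Kv4 channels carry the fast transient current of neuronal dendrites, and their subunits Kcnd1, Kcnd2 and Kcnd3 gave differing values, none past the threshold. Kcnd3 had log2 signals of -3.26, -2.45, -3.02 and -2.52 in WT and of -3.34, -3.25, -3.21 and -3.52 in the Nkx2-1cKO, a change of -0.52 (standard error 0.19, adjusted p = 0.46, limma). WT replicate 1 lay within the mutant range, and without it the change was -0.67 (adjusted p = 0.16). On slide 1 it was -0.25 and on slide 2 -0.79. Kcnd1 gave -0.96 (standard error 0.36, adjusted p = 0.47), with overlapping WT values of -5.99 to -4.45 and mutant values of -6.46 to -5.80. Kcnd2 gave 0.18 (standard error 0.11, adjusted p = 0.66), and on its second probe, where every mutant array was above every WT array, 0.25 (adjusted p = 0.54). Within each array the difference of Kcnd3 from Kcnd2 changed by -0.70 in the Nkx2-1cKO, with no overlap. The exact two-sided permutation test gave p = 0.0286, adjusted p = 0.0358 over the 5 pairs, all chosen after the values were seen. These p-values are thus descriptive only.

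The auxiliary proteins of Kv4 channels held further values of negative sign. Kcnip2, a calcium-binding subunit, had log2 signals of -2.60, -3.31, -3.28 and -3.03 in WT and of -3.70, -3.40, -3.65 and -3.81 in the Nkx2-1cKO. The groups were apart, by 0.09 at their nearest, and the change was -0.59 (standard error 0.18, adjusted p = 0.30, limma), or -0.43 without WT replicate 1. Kcnip4 had log2 signals of -2.45, -2.42, -2.46 and -2.31 in WT and of -2.55, -2.47, -4.00 and -2.92 in the mutant, a change of -0.58 (standard error 0.29, adjusted p = 0.62) drawn mostly from Nkx2-1cKO replicate 3. Its second probe had no such array and gave -0.76 (standard error 0.23, adjusted p = 0.29), again with the groups apart. Kcnip1 and Kcnip3 gave -0.04 and 0.02.

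Dpp10, which carries no Kcn symbol and encodes a dipeptidase-like auxiliary subunit of Kv4 channels, fell in the Nkx2-1cKO. Its log2 signals were -0.10, -0.30, -0.10 and -0.59 in WT and -1.42, -1.15, -1.84 and -1.94 in the mutant, a change of -1.31 (standard error 0.19, adjusted p = 0.009, limma) with the groups apart. The change was -1.44 on slide 1, -1.18 on slide 2 and -1.26 without WT replicate 1 (adjusted p = 0.029), and a dimmer probe gave -0.82 (adjusted p = 0.37). Dpp6, its close relative, gave 0.08 (standard error 0.09; 95% interval -0.13 to 0.29). Within each array the difference of Dpp10 from Dpp6 changed by -1.39, with no overlap. The exact two-sided permutation test gave p = 0.0286, adjusted p = 0.0358 over the 5 pairs, all chosen after the values were seen. These p-values are thus descriptive only.

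Lgi1, a secreted protein found with Kv1 channels at synapses, also fell. It had log2 signals of -1.04, -0.99, -0.80 and -0.94 in WT and of -2.20, -1.83, -2.30 and -2.80 in the Nkx2-1cKO, a change of -1.34 (standard error 0.18, adjusted p = 0.007, limma). Every mutant array was below every WT array, as on a second probe with a change of -1.26 (adjusted p = 0.006). The change was -1.39 on slide 1, -1.29 on slide 2 and -1.37 without WT replicate 1, and with normexp it was -0.98 (adjusted p = 0.052). Dpp10 and Lgi1 were the 2 of 21 tested channel partners and potassium transport genes that passed the threshold, against 0.851% of all genes that fell. Cntnap2, which clusters Kv1 channels along axons, had log2 signals of 1.72 to 1.91 in WT and 2.18 to 2.48 in the mutant, a change of 0.42 (standard error 0.09, adjusted p = 0.082). With slide as a block its adjusted p was 0.042. Its second probe gave 0.24, again with every mutant array above every WT array. Its dimmest gave -0.77, or -0.36 without WT replicate 1, which read -3.56 there against -5.38 to -5.06 on the other WT arrays. On that probe every mutant array, at -5.69 to -5.47, was below every WT array, so the probes disagree in direction. The chloride cotransporters Slc12a2 and Slc12a5, which also carry potassium, gave 0.12 and -0.10, and the sodium pump beta subunits Atp1b1, Atp1b2 and Atp1b3 -0.08 to 0.04.

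The windows before the starts of these partners are shown because they are the channel partner genes that fell. Dpp10 lies at chr1:124045560-124045809 on the minus strand, and Lgi1 at chr19:38264437-38264686 on the plus strand, both in GRCm38.p6 and from RefSeq. Capitals mark E-boxes and, in Lgi1, also TGAAGTG, which is the NKX2-type motif CACTTNA read from the other strand.
Dpp10: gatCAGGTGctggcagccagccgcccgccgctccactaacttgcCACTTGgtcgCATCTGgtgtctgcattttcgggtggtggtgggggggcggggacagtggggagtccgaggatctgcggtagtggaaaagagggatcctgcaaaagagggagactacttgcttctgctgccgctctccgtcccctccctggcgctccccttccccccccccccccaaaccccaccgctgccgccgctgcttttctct
Lgi1: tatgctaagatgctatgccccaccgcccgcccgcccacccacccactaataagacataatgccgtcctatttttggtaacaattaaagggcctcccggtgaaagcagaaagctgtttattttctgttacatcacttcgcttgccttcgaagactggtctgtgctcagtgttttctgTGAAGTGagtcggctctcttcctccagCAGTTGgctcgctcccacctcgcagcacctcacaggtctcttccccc
The Dpp10 window holds 3 E-boxes and none of the other motifs searched. The Lgi1 window holds 1 E-box and 1 NKX2-type motif, and the motifs do not overlap. An NKX2-type motif stands in 10.06% of all windows.

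Beta and other auxiliary subunits with Kcn symbols gave values of both signs, and none of the 15 passed the threshold. Kcnab1, a cytoplasmic beta subunit that speeds inactivation of Kv1 channels, had log2 signals of -2.99, -2.74, -2.70 and -2.99 in WT and of -1.96, -2.31, -2.29 and -2.39 in the Nkx2-1cKO. Every mutant array was above every WT array, and the change was 0.62 (standard error 0.13, adjusted p = 0.076, limma). With slide as a block the adjusted p was 0.052. A second, dimmer Kcnab1 probe gave -0.45 (standard error 0.47), since WT replicate 1 read -3.62 there and the other WT arrays -5.82 to -5.28, and without that array it gave 0.01.

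Kcnab2 and Kcnab3, the other beta subunits, gave 0.28 (adjusted p = 0.62) and -0.23 (adjusted p = 0.55), and the groups were apart for Kcnab3, at -1.59 to -1.28 in WT and -1.75 to -1.60 in the mutant. Kcnmb4, the brain subunit of large-conductance calcium-activated channels, was also apart, at 1.80 to 2.10 in WT and 1.71 to 1.80 in the mutant, where the nearest values differed by less than the rounding, with a change of -0.20 (standard error 0.08, adjusted p = 0.53). Kcnmb1, the smooth muscle subunit of those channels, gave -0.86 (standard error 0.82), and WT replicate 1 read -3.53 against -7.58 to -6.16 on the other WT arrays. Without it the change was -0.02. Kcne4, a single-pass subunit that reduces currents of several Kv channels, gave -0.73 (standard error 0.26, adjusted p = 0.45) with the groups apart, and -0.50 without WT replicate 1. The summed signal of the mural cell list was 16.78 on WT replicate 1 and 17.66 to 21.05 on the other WT arrays. In the Nkx2-1cKO it was 16.96 to 18.01. For the mesenchyme list these sums were 0.89, 0.75 to 6.82 and 0.70 to 1.30, in the same order.

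**Figure D3:**
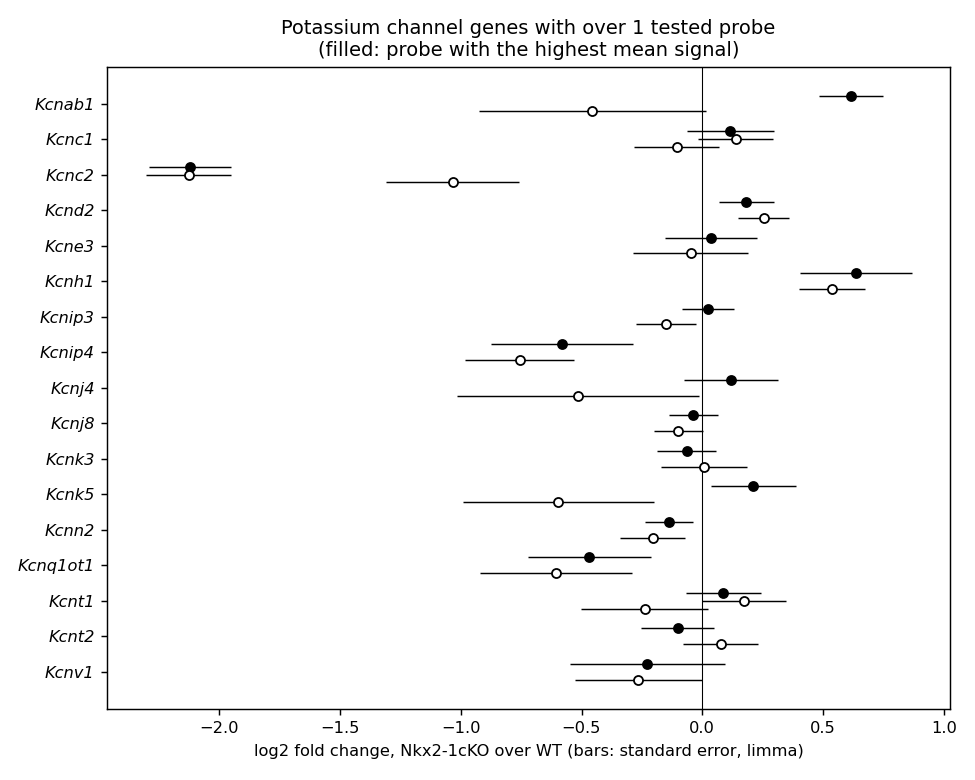
Log2 fold change (x axis, Nkx2-1cKO over WT) of every tested probe of 17 potassium channel genes with more than 1 (y axis), filled for the brightest probe, with bars for the limma standard error. The 3 Kcnc2 probes lie at -2.13, -2.12 and -1.03, and 9 of the 17 genes had probes of both signs, among them Kcnab1 at 0.62 and -0.45.

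Among EAG, ERG and ELK genes, slow voltage-gated channels of which ERG repolarises heart muscle, none of the 8 passed the threshold. Kcnh1, the EAG subunit, had log2 signals of -3.32, -3.27, -3.08 and -3.87 in WT and of -3.21, -2.97, -2.33 and -2.48 in the Nkx2-1cKO, a change of 0.63 (standard error 0.23, adjusted p = 0.45, limma) with overlap. On its second probe the groups were apart, at -4.08 to -4.01 in WT and -3.73 to -3.31 in the mutant, and the change was 0.54 (standard error 0.14, adjusted p = 0.17). Kcnh3, an ELK subunit of the forebrain, had log2 signals of -2.36, -3.19, -3.12 and -2.67 in WT and of -3.72, -3.55, -3.52 and -3.49 in the mutant. These groups were apart, with a change of -0.73 (standard error 0.19, adjusted p = 0.17), or -0.58 without WT replicate 1. Kcnh7, an ERG subunit, gave -0.76 (standard error 0.31, adjusted p = 0.53), with WT values of -5.95 to -4.75 above mutant values of -6.37 to -6.10, and -0.51 without WT replicate 1. Kcnh2, the cardiac ERG subunit, gave 0.24 (adjusted p = 0.64), and Kcnh4, Kcnh5, Kcnh6 and Kcnh8 gave -0.25, -0.08, -0.03 and -0.09, or -0.13, 0.05, 0.12 and -0.03 without WT replicate 1.

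KCNQ genes, which carry the M-current that holds neurons back from repetitive firing, had no member past the threshold. Kcnq3 gave -0.35 (95% interval -0.94 to 0.23, limma), and -0.11 without WT replicate 1. Kcnq1, known from heart and epithelia, gave -0.07 (95% interval -0.36 to 0.23). Kcnq5 was not above background on any array. The non-coding RNA Kcnq1ot1, which silences neighbouring genes on the paternal chromosome and encodes no channel, was a member by its symbol. It gave -0.47 (standard error 0.25, adjusted p = 0.63, limma), or -0.23 without WT replicate 1. Its dimmer tested probe gave -0.61 (standard error 0.31), or -0.59 without that array, and was well above background on 3 WT and 2 mutant arrays.

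Calcium- and sodium-activated channels gave -0.69 to 0.09 in 8 members, none past the threshold. The small-conductance genes Kcnn1 and Kcnn2, which carry the afterhyperpolarisation, gave 0.00 (95% interval -0.18 to 0.19) and -0.14 (95% interval -0.36 to 0.08). Kcnma1, the large-conductance pore subunit, gave -0.17 (standard error 0.21), and Kcnt1 and Kcnt2, the sodium-activated subunits, 0.09 and -0.10. The lowest value, in Kcnn4 of blood and epithelial cells, had WT replicate 1 at -3.52 against -5.55 to -5.15 on the other WT arrays, and was -0.22 without it.

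Inward rectifiers had 14 members on the array, of which 11 were tested, with changes of -0.46 to 0.12 and groups that overlapped in each. Without WT replicate 1 the changes were -0.16 to 0.42. Kcnj8 of vascular pericytes and Kcnj10 of glia gave -0.04 (95% interval -0.26 to 0.19) and -0.10 (95% interval -0.35 to 0.15). The G protein-gated genes Kcnj3, Kcnj5, Kcnj6 and Kcnj9, which carry the slow inhibitory current opened by GABA-B and muscarinic receptors, gave -0.35, -0.24, -0.37 and -0.00, and without WT replicate 1 -0.16, 0.42, -0.01 and 0.17. Kcnj6 read -5.25 on that array and -6.79 to -6.64 on the other WT arrays. Kcnj16, the lowest of the family at -0.46, was 0.06 without it. Kcnj5 and Kcnj16 were near the background and changed sign between slides, Kcnj5 from 0.94 on slide 1 to -1.42 on slide 2 and Kcnj16 from 0.42 to -1.34. Kcnj1, Kcnj2 and Kcnj15 had no tested probe.

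K2P channels, which carry leak currents, gave the highest value of all members but none past the threshold. Kcnk10, a leak channel opened by stretch and lipids, had log2 signals of -1.78, -2.25, -2.67 and -2.05 in WT and of -1.32, -1.48, -1.25 and -1.44 in the Nkx2-1cKO. Every mutant array was above every WT array. The log2 fold change was 0.82 (standard error 0.17, adjusted p = 0.074, limma), with 0.77 on slide 1 and 0.87 on slide 2. WT replicate 1 was the WT array nearest to the mutant arrays, and without it the change was 0.95 and passed the threshold (adjusted p = 0.026). It also passed with centring on the median (0.94, adjusted p = 0.042) and with array weights (adjusted p = 0.014). Kcnk2, of the same subgroup, gave -0.10 (95% interval -0.39 to 0.18). Within each array Kcnk10 was higher relative to Kcnk2 by 0.92 in the Nkx2-1cKO, with no overlap. The exact two-sided permutation test gave p = 0.0286, adjusted p = 0.0358 over the 5 pairs, all chosen after the values were seen. These p-values are thus descriptive only. Kcnk6 was also apart, at -3.27 to -3.10 in WT and -3.08 to -2.86 in the mutant, with a change of 0.22 (standard error 0.11, adjusted p = 0.61). Kcnk5 gave 0.21, or 0.37 with the groups apart without WT replicate 1, and on a dimmer probe -0.60, or -0.37 without it. The other K2P genes gave -0.35 to 0.07, the lowest being Kcnk4, which was -0.23 without WT replicate 1.

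**Figure D4:**
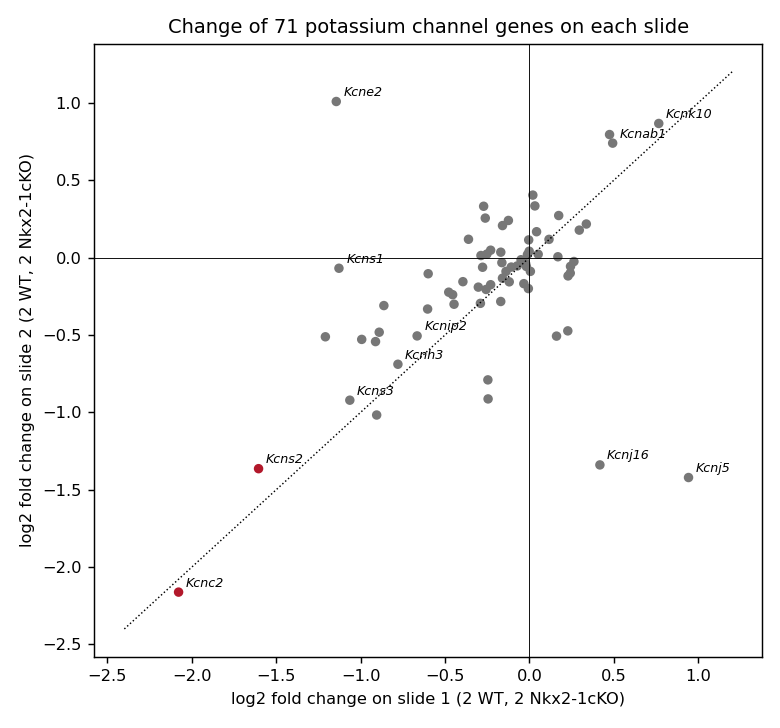
Log2 fold change of 71 potassium channel genes on slide 1 (x axis) and slide 2 (y axis), each from 2 WT and 2 Nkx2-1cKO arrays, with the dotted line at equal change. Kcnc2 and Kcns2, in red, lie near the line, 49 of the 71 genes had the same sign on both slides, and Kcnj5, Kcnj16 and Kcne2 had opposite signs with the slides more than 1 apart.

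The values that moved most when WT replicate 1 was left out were those of dim probes. The change of Kcnmb1 shifted from -0.86 to -0.02, that of Kcnj5 from -0.24 to 0.42 and that of Kcne2 from -0.07 to 0.55. The falls of Kcnc2 and Kcns2 remained past the threshold without that array. The share of all genes that fell was then 0.789%, and that of genes that rose 0.429%, beside 2 and 1 of the 75 members.

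**Figure D5:**
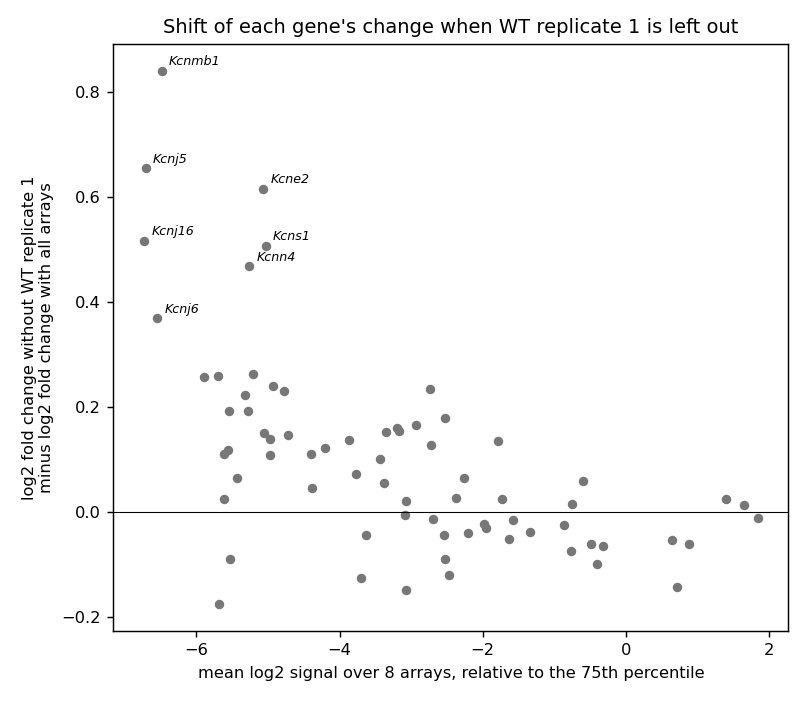
Difference between the log2 fold change without WT replicate 1 and that with all 8 arrays (y axis) against the mean log2 signal relative to the 75th percentile (x axis) for 71 potassium channel genes. The genes with the largest shifts, Kcnmb1, Kcnj5 and Kcne2, lie at low mean signal, and genes of high signal lie near 0.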

How the data were processed

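MGE of 4 WT and 4 Nkx2-1cKO samples at E13.5 was profiled on 1-colour Agilent arrays, with 1 sample per array. The authors deposited the Feature Extraction output (version 10.1 per the labels, 10.7.3.1 per the file headers), in which the processed intensity of each spot is background-subtracted within its own array only. Median intensities and local backgrounds were deposited beside it, and no spot was saturated.

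After removal of control and outlier spots, the deposited intensity was divided by the array's own 75th percentile, log2-transformed and averaged over the spots of a probe. Probes were named by accession through the RefSeq gene table of GRCm38.p6, which matched 24844 of 41174 probes. The share of probes well above background was 71.1% to 79.5% per array. The 31280 probes that passed on 4 or more arrays entered lmFit and eBayes with a variance trend (limma 3.58.1, R 4.3.3), with p-values adjusted by Benjamini-Hochberg across these probes and a threshold of 0.05. The tested probe with the highest mean signal represents a gene. The test was run on simulated data of 31280 probes for this comparison, where it recovered 50% of 200 probes given a log2 change of 1 and made 104 calls, 4 of them false. The simulated noise was drawn independently for each probe and array. It held no slide effect and no array raised on dim probes, so these rates may not hold for the dim probes here.

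Genes named with values are those with a probe past the threshold, with an unadjusted p under 0.05 or with groups apart, the largest changes, those whose probes disagree, subunits known from fast-spiking interneurons, and partner genes that passed or were apart. Genes outside this rule were chosen after their values were seen. The members, the gene lists and these rules were chosen with earlier results of these data known.

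Alternatives were normexp, centring on the median, quantile normalization, other filters on dim probes, slide or replicate number as a block, each slide alone, no variance trend, array weights, the mean over probes of a gene, and omission of each array in turn. Normexp took the median signal and an offset of 50. Scan batches coincided with slides. Same-numbered arrays of the groups did not deviate together (correlations -0.481 to -0.194). Each such pair lay on different slides, and slide was not removed first. The correlations therefore cannot decide whether the numbers pair the arrays. Probe sequences and the other assays of the study were not analysed here. Some members and partner genes enter the counts but are not reported here by name or drawn.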

Additional observations from a re-analysis of the deposited data

Results flagged for a closer look

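In 50 groups of 4 values, those of the 25 named members in WT and in the Nkx2-1cKO, 2 had 1 array far from the others by Dixon's criterion at the 95% level. For groups not chosen by their values, chance would give about 2.5. Most named members were chosen by their values in these data, so the 2 counts cannot be weighed against each other. Both were WT replicate 1 on dim probes. Kcne4 read -4.29 there against -5.24 to -5.09 on the other WT arrays, and its change was -0.73 with and -0.50 without that array. Kcns1 read -3.21 against -5.27 to -5.19, and its change was -0.60 with and -0.09 without it. The cause of the raised dim signals of this array was not tested.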

How the results depend on the processing

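Nkx2-1 kept its fall in all 20 alternatives (-6.40 to -5.06). Of the potassium channel genes, the number that fell, 2 as reported, was 1 (Kcnc2) with quantile normalization, with a filter on the mean signal and on slide 2 alone, and 0 with normexp and on slide 1 alone, where 2 arrays stand against 2. Leaving out 1 array gave 1 to 2 falls, and 1 where any array but WT replicate 1 or Nkx2-1cKO replicate 2 was left out. It was 3, with Kcns3, without a variance trend and with array weights. The number that rose, 0 as reported, was 1 (Kcnk10) with centring on the median and with array weights, and 0 to 1 with 1 array left out, the 1 being without WT replicate 1. The count of partner genes, 2 as reported, was 1 (Dpp10) with normexp, 0 on slide 1 alone and 1 (Lgi1) on slide 2 alone, and 3 (with Cntnap2) with slide as a block and with array weights. With the replicate number as a block, the count of partner genes was 0 and the fall count was 1. Whether that number pairs the arrays was not resolved.

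The median change of the members was 0.0163 with centring on the median, which moved that of all genes from -0.00 to 0.12, and 0.31 with normexp. Normexp turned the sign of Kcna1 (0.20), Kcna2 (0.79), Kcnd1 (0.38), Kcnd3 (0.012), Kcne4 (0.31), Kcnh7 (0.48), Kcnip2 (0.018), Kcnmb1 (0.37), Kcns1 (0.33), Kcns2 (0.0945, standard error 0.76) and Kcns3 (0.29). Kcnc2 was then -1.40 (adjusted p = 0.06, limma). Quantile normalization turned Kcna2 to 0.35 and centring turned Kcna1 to 0.0055, slide 1 alone turned Kcna2 to 0.23, and the mean of probes turned Kcnk5 to -0.19 and Cntnap2 to -0.0386. With 1 array left out, Kcna2 ranged from -0.38 to 0.25, the latter without Nkx2-1cKO replicate 1, and Kcnc1 from -0.0485 to 0.22, the former without Nkx2-1cKO replicate 3. The cause of these shifts was not tested. Signal over background limits what can be said of the 7 members with no tested probe and of the dim ones.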

Other observations

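Some probes that were not tested read high on 1 or 2 WT arrays. Kcnj1, a renal inward rectifier, read -3.32 on WT replicate 4 against -7.81 to -6.80 on the other WT arrays and -9.08 to -8.18 on the Nkx2-1cKO arrays, and only that 1 value was well above background. The second probe of Kcnj6 read -4.50 on the same array against -9.39 to -7.96 on the other WT arrays and -9.43 to -8.98 on the mutant arrays. The Kcnj15 probe read -5.20 on WT replicate 1 and -6.66 on WT replicate 4, the 2 values above background, and -8.93 to -7.15 on the mutant arrays.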
